A study of Homo sapiens with 12 samples.

Results

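The response to TGF-β1 of LX-2 cells that had been transfected with an siRNA against NAT10 is described here over all expressed genes. LX-2 is an established human hepatic stellate cell line. The comparison takes 6 of the 12 bulk RNA-seq libraries of the study, chosen by their labels: 3 of SiNAT10_TGFB against 3 of SiNAT10. Of 58735 annotated genes, 18560 had enough counts to be tested. Both groups carried the siRNA, which was delivered with a Lipofectamine reagent, and both are labelled as wild type in genotype. SiNAT10_TGFB cells received 5 ng/ml of TGF-β1 48 hours after transfection and were harvested 24 hours later. When the SiNAT10 cells were harvested is not given here, so TGF-β1 and any difference in time since transfection cannot be told apart. The other 6 libraries come from cells labelled without transfection, 3 untreated (con) and 3 given the same dose of TGF-β1 for 24 hours (TGFB). No control siRNA is named in the labels used here, so where the siRNA groups are set beside these, loss of NAT10 and transfection itself cannot be told apart. Per the labels the 3 libraries of a group are biological replicates, but separate cultures are not named, so a p-value below covers only the spread from library to library, which may be technical.

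TGF-β1 binds a pair of kinase receptors, TGFBR2 and TGFBR1, which phosphorylate SMAD2 and SMAD3. These enter the nucleus with SMAD4 and act on target genes together with other factors such as AP-1. In the liver the pathway is known for turning stellate cells into contractile, collagen-secreting myofibroblasts, and inhibitory SMADs and receptor-degrading proteins that it induces limit it in turn. NAT10 is an RNA acetyltransferase that places N4-acetylcytidine on ribosomal and transfer RNA.

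Promoter sequences are shown for 7 genes on which the results below turn and which hold a binding motif of a factor known for the pathway they belong to. Each is the stretch of 250 bases before the gene's start, from RefSeq on GRCh38.p14, written 5′ to 3′ on the gene's own strand. Capitals mark the motif named for the gene, found on either strand, and other motifs are left in lower case. SMAD6 (chr15:66701986-66702235, plus strand) encodes an inhibitory SMAD and holds the SMAD palindrome GTCTAGAC 12 bases before its start.
SMAD6: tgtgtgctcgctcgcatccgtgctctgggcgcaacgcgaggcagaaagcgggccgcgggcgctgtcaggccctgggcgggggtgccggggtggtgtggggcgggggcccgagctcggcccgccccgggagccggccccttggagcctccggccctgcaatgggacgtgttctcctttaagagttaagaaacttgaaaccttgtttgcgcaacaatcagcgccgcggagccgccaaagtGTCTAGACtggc
IL11 (chr19:55370464-55370713, minus strand), a profibrotic cytokine, and ANKRD1 (chr10:90921088-90921337, minus strand), a stretch-responsive nuclear protein, were higher with TGF-β1 and hold the AP-1 motif TGANTCA 96 and 195 bases before their starts. SERPINB2 (chr18:63887455-63887704, plus strand), a plasminogen activator inhibitor, was lower and holds the same motif 102 bases before its start. Unmarked are the SMAD motif CAGACA in ANKRD1 and SERPINB2, on either strand, and the TEAD motif GGAATG in ANKRD1.
IL11: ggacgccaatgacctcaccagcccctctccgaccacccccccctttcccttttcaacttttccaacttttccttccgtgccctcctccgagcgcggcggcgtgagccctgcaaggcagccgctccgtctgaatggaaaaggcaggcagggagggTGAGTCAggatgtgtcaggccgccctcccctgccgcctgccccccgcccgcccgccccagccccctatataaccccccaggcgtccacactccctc
ANKRD1: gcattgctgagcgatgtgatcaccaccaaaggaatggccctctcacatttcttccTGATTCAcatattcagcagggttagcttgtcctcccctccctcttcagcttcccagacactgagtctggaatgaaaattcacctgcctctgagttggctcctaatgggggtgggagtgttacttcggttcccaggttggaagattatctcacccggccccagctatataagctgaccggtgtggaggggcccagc
SERPINB2: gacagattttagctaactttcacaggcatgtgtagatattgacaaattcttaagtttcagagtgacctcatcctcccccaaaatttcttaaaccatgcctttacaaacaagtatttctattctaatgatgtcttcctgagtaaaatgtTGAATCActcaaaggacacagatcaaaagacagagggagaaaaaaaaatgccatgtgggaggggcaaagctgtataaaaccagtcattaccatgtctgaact
IFIT3 (chr10:89327747-89327996, plus strand), SAMD9 (chr7:93117980-93118229, minus strand) and IFI44 (chr1:78649539-78649788, plus strand) are interferon response genes whose TGF-β1 response was higher with the siRNA than without it. They hold the interferon response motif, a pair of GAAA separated by 2 bases, at 156 and 122 bases before the start in IFIT3, 136 in SAMD9 and 18 in IFI44.
IFIT3: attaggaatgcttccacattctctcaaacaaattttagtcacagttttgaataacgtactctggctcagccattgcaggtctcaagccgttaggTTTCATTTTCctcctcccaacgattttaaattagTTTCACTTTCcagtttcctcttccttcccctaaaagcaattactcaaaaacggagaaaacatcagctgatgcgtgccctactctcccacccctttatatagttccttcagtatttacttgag
SAMD9: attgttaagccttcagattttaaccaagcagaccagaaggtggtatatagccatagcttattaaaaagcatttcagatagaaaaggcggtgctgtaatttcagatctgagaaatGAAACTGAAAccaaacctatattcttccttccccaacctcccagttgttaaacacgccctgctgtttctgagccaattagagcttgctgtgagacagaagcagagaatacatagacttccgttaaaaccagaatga
IFI44: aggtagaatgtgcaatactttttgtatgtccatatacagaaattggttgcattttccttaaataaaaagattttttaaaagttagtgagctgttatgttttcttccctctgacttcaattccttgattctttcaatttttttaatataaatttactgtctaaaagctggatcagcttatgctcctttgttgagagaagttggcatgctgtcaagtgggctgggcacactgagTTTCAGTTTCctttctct

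RefSeq promoters of 300 bases (250 before to 50 after the start) were matched to 11537 of the 18560 genes tested. TGANTCA, which reads the same on both strands, occurred in 4.99% of these promoters. For TGF-β1 in the siRNA cells, it was in 5.51% of the 799 promoters of higher genes and in 7.26% of the 702 of lower genes. Among the higher genes, 169 with a promoter rose by at least 1 log2 unit, and 10.7% of these held it. The SMAD motif CAGACA occurred in 12.7% of all, 14.0% of the 799, 13.0% of the 702 and 17.2% of the 169. The palindrome GTCTAGAC, whose GTCT is shared with the reverse complement of CAGACA, was in 17 of the 11537 promoters (0.147%), and SMAD6 was the only gene that rose among them. The interferon response motif was in 2.96% of all promoters and in 19 of the 30 matched promoters of the interferon list (63.3%). In the list of direct TGF-β/SMAD response genes, the AP-1 motif was in 1 of 22 matched promoters (4.55%) and the SMAD motif in 4 (18.2%). The 169 promoters also differed in a motif of another factor, SP1, held by 58.0% of them and 68.0% of all. Differences between these shares were not tested. A match describes the letters in this window and is no measure of binding.

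The 6 siRNA libraries held 25877008 to 28311434 gene counts, of which 2.24 to 2.50% fell on mitochondrially encoded genes. Levels are given below in CPM (counts relative to the size of the library, adjusted by the TMM scaling factor), and 3 counts correspond to 0.103 to 0.115 CPM in these libraries. NAT10 was at 19.5, 18.5 and 17.9 CPM in SiNAT10 and 19.2, 15.8 and 20.7 CPM in SiNAT10_TGFB, against 62.9 to 69.9 CPM in the 6 untransfected libraries, and the 2 siRNA groups overlapped (adjusted p = 0.988). Of 20 stellate cell markers, DCN and LRAT had no counts in the 6 libraries and 6 had at most 3 counts in each. The summed level of the list was 3365 to 3581 CPM in SiNAT10 and 4394 to 4544 CPM in SiNAT10_TGFB, and it contains collagen and contractile genes reported below. COL1A1 had 769 to 965 and 1231 to 1548 CPM of it, and SPARC 1279 to 1408 and 1664 to 1747 CPM. Of the 14 members tested, 7 rose and 3 fell (5.92% and 5.15% over all genes tested). Those that fell were NGFR (9.49 to 10.5 and 4.60 to 6.95 CPM), HAND2 (3.39 to 3.83 and 2.22 to 2.69 CPM) and S100A6 (165 to 189 and 121 to 142 CPM). Summed endothelial markers were at 15.2 to 16.5 CPM without and 26.0 to 30.1 CPM with TGF-β1, with CLEC4G and ERG at 0. Of that sum ROBO4 had 6.30 to 7.24 and 11.9 to 13.9 CPM and TEK 5.56 to 8.50 and 11.1 to 13.8 CPM, and the highest level of any other gene of the list was 1.25 CPM, for PECAM1. Leukocyte markers were at 6.51 to 7.79 and 8.02 to 8.55 CPM, with MARCO, TYROBP and VSIG4 at 0. Hepatocyte markers were at 23.4 to 24.7 and 24.5 to 28.6 CPM, with APOB, FGB and TTR at 0, and epithelial markers at 520.1 to 588 and 548 to 581 CPM. Of the hepatocyte sum SERPINA1 had 22.9 to 24.1 and 24.2 to 28.4 CPM, and ALB reached at most 0.15 CPM. Of the epithelial sum KRT18 had 274.1 to 324.5 and 301.8 to 303.2 CPM, and KRT8 222.8 to 249.2 and 227.1 to 260.8 CPM. EPCAM and KRT19 reached at most 0.14 and 0.18 CPM in these libraries. The first principal component of the 6 libraries (34.3% of the variance) separated the groups, and the second (18.9%) had SiNAT10 replicates 1 and 3 at opposite ends. Within-group deviations of these libraries correlated across genes with transcript GC content, with Spearman's rho of 0.63 and -0.65 in SiNAT10 replicates 1 and 3 and from -0.34 to 0.19 in the other 4. With that trend removed, 1504 genes rose and 1495 fell, more than the 1098 and 956 of the fit reported below, of whose calls 99.5% were also made there in the same direction.

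In cells with the NAT10 siRNA, 1098 genes rose and 956 fell with TGF-β1 at an adjusted p under 0.05 (quasi-likelihood test of edgeR, adjusted over the 18560 genes by Benjamini-Hochberg), or 11.1% of the genes tested, 5.92% higher and 5.15% lower. A log2 fold change of at least 1 was reached by 271 of the higher and 138 of the lower genes. Protein-coding genes made up 988 of the higher and 883 of the lower. CPM of the 2 groups did not overlap at 4337 genes (23.4%). Scaling to library size alone gave 876 higher and 1510 lower genes, so the share of calls that were higher was 36.7% there against 53.5% with TMM, and the median of all genes differed by -0.06 log2 units between these scalings. The largest share of higher calls was in the list of known direct TGF-β/SMAD response genes, where 28 of 35 rose. Fibrillar collagens, contractile genes, secretory chaperones and cholesterol synthesis genes also had more members that rose than fell, and 11 of 34 mitosis genes fell. The median log2 fold change over all genes tested was -0.004.

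**Figure D1:**
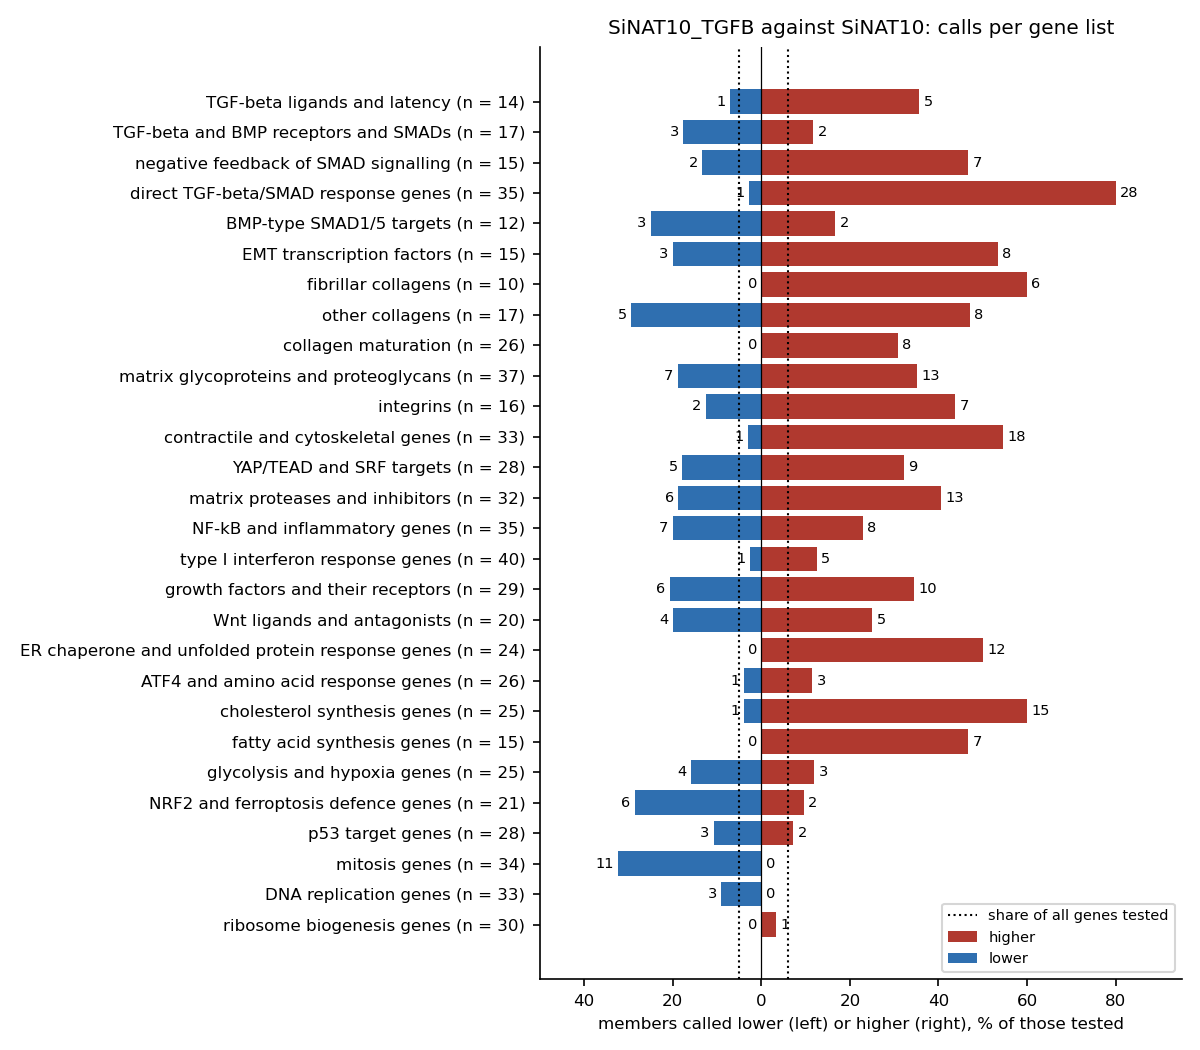
Share of the tested members of each gene list that were called higher (right, red) or lower (left, blue) in SiNAT10_TGFB against SiNAT10, in percent, with the number of genes at each bar and dotted lines at the shares over all genes tested (5.92% higher, 5.15% lower). The direct TGF-β/SMAD response list has the longest bar, with 28 of 35 members higher, and the mitosis list has 11 of 34 members lower.

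Among 14 genes for TGF-β family ligands and for proteins that keep them latent or are related to these, 5 rose and 1 fell (median 0.06). The median was between -0.04 (without SiNAT10_TGFB replicate 2) and 0.42 (without SiNAT10_TGFB replicate 3) when 1 library was left out, and 0.82 over the 11 members with at least 10 counts in every library. TGFB1 itself, the gene of the ligand added to the medium, was at 134, 126 and 105 CPM in SiNAT10 and 245, 219 and 213 CPM in SiNAT10_TGFB. Every treated library was above every untreated one, a log2 fold change of 0.89 (adjusted p = 1.13e-08, SE 0.08). LTBP2, a matrix protein of the latent-complex family, was at 13.1, 15.4 and 14.3 CPM in SiNAT10 and 77.4, 73.1 and 66.8 CPM in SiNAT10_TGFB. Its log2 fold change was 2.35 (adjusted p = 2.4e-15, SE 0.09), the largest of the list. Of the same family LTBP4 rose by 0.82 log2 units, and LTBP1 (-0.02) and LTBP3 (0.006) were not called. INHBA, the activin A subunit, rose by 0.91 (adjusted p = 3.3e-10, SE 0.06) log2 units, from 132, 122 and 143 to 256, 236 and 252 CPM. TGFB2, a second ligand, was at 7.58, 8.57 and 11.5 CPM in SiNAT10 and 22.1, 17.9 and 24.8 CPM in SiNAT10_TGFB and rose by 1.23 (adjusted p = 8.51e-08, SE 0.12) log2 units. In TGFB2 26.6% of exon bases also belong to the transcript TGFB2-OT1 on the same strand.

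Of 17 receptors and SMADs 2 rose and 3 fell (5.92% and 5.15% over all genes tested), with a median of -0.07. Leaving out 1 library gave between 1 (without SiNAT10_TGFB replicate 1) and 4 (without SiNAT10 replicate 1) higher genes, and 1 lower gene without SiNAT10_TGFB replicate 2. BMPR2, the type II receptor for bone morphogenetic proteins, was at 139, 136 and 149.5 CPM in SiNAT10 and 223, 203 and 221 CPM in SiNAT10_TGFB, without overlap, and rose by 0.61 (adjusted p = 4.42e-08, SE 0.06) log2 units. TGFBR3, the co-receptor betaglycan, was at 22.1, 20.9 and 26.9 CPM in SiNAT10 and 13.5, 13.9 and 15.8 CPM in SiNAT10_TGFB. It fell, with a log2 fold change of -0.70 (adjusted p = 9.5e-05, SE 0.11), and the treated libraries were all below the untreated ones.

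Negative regulators of SMAD signalling, through which the pathway limits itself, rose at 7 of 15 members and fell at 2, with a median of 0.61. PMEPA1, a membrane protein that sequesters receptor-activated SMADs, was at 8.99, 9.28 and 9.41 CPM in SiNAT10 and 245, 217 and 227 CPM in SiNAT10_TGFB. The log2 fold change was 4.64 (adjusted p = 3.85e-21, SE 0.08), the largest of the list. SMAD7, the inhibitory SMAD that targets the receptors, was at 25.3, 26.4 and 22.9 CPM in SiNAT10 and 88.4, 87.3 and 83.6 CPM in SiNAT10_TGFB. It rose by 1.80 (adjusted p = 2.29e-14, SE 0.08) log2 units, and each treated library was above the untreated ones. SKIL, a SMAD co-repressor, rose by 1.34 (adjusted p = 4.24e-11, SE 0.08) log2 units, from 25.3, 26.5 and 28.4 to 68.7, 65.5 and 69.3 CPM. FSTL3, a secreted activin antagonist, was at 38.3, 33.6 and 28.6 CPM in SiNAT10 and 94.00, 97.4 and 84.5 CPM in SiNAT10_TGFB, a rise of 1.46 (adjusted p = 1.24e-11, SE 0.09). SMAD6, whose promoter with the palindrome is printed above, was low, at 1.17, 1.04 and 1.97 CPM in SiNAT10 and 2.46, 2.80 and 3.33 CPM in SiNAT10_TGFB. Its groups did not overlap and the log2 fold change was 1.04 (adjusted p = 0.00154, SE 0.22), a call lost on the log2(FPKM + 1) scale. NEDD4L, a ubiquitin ligase that acts on activated SMAD2 and SMAD3, went the other way: it was at 194, 188 and 189 CPM in SiNAT10 and 122, 127 and 131 CPM in SiNAT10_TGFB and fell, with a log2 fold change of -0.59 (adjusted p = 4.64e-08, SE 0.06).

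Direct TGF-β/SMAD response genes rose at 28 of 35 members, with 1 lower and a median log2 fold change of 0.98. TGFBI, a secreted adhesion protein named for its induction by TGF-β, was at 752, 675 and 698 CPM in SiNAT10 and 2862, 2735 and 2883 CPM in SiNAT10_TGFB, a log2 fold change of 2.00 (adjusted p = 3.66e-18, SE 0.05). MMP2, a gelatinase, was at 8.44, 7.50 and 7.88 CPM in SiNAT10 and 87.03, 74.6 and 87.4 CPM in SiNAT10_TGFB. Its log2 fold change of 3.39 (adjusted p = 3.66e-18, SE 0.09) was the largest of the list. ADAM19, a membrane metalloprotease, rose by 1.74 (adjusted p = 2.65e-16, SE 0.06) log2 units. CTGF (chr6:131948176-131951373; now named CCN2), a matricellular protein of fibrosis, was at 207, 191 and 189 CPM in SiNAT10 and 366, 347 and 314 CPM in SiNAT10_TGFB. The groups did not overlap and the log2 fold change was 0.81 (adjusted p = 9.85e-10, SE 0.06). IL11 was at 167, 151 and 145 CPM in SiNAT10 and 487, 478 and 430.3 CPM in SiNAT10_TGFB, without overlap, and rose by 1.59 (adjusted p = 1.13e-14, SE 0.06) log2 units. VEGFA, the angiogenic growth factor, rose by 1.15 (adjusted p = 4.48e-11, SE 0.07) log2 units. The exception was ID1, an inhibitor of helix-loop-helix factors that TGF-β is known to repress in many epithelial cells: it was at 18.7, 20.8 and 17.00 CPM in SiNAT10 and 9.89, 13.1 and 12.1 CPM in SiNAT10_TGFB and fell, with a log2 fold change of -0.69 (adjusted p = 4.61e-05, SE 0.10).

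Of 12 genes known as targets of the SMAD1/5 branch 2 rose and 3 fell, and the median was -0.01. The lower count was 1 without SiNAT10 replicate 1 and without SiNAT10_TGFB replicate 2. Transcription factors known from epithelial-mesenchymal transition moved in both directions, 8 of 15 higher and 3 lower (median 0.29). SOX4, a direct effector of TGF-β in several cell types, was at 17.8, 19.99 and 20.4 CPM in SiNAT10 and 65.8, 65.7 and 70.99 CPM in SiNAT10_TGFB and rose by 1.80 (adjusted p = 5.67e-13, SE 0.09) log2 units. SNAI1, a repressor of epithelial genes, was at 11.2, 12.2 and 11.8 CPM in SiNAT10 and 27.1, 22.04 and 20.4 CPM in SiNAT10_TGFB. It rose by 0.98 (adjusted p = 5.78e-06, SE 0.13) log2 units, and the groups did not overlap. TCF4, a helix-loop-helix factor, rose by 0.83 (adjusted p = 1.39e-07, SE 0.09) log2 units. SOX9, known for cartilage matrix genes, was at 70.6, 65.6 and 62.3 CPM in SiNAT10 and 35.3, 35.4 and 38.00 CPM in SiNAT10_TGFB. Its level fell, with a log2 fold change of -0.87 (adjusted p = 1.35e-08, SE 0.08), and RUNX2, an osteoblast factor, fell with a log2 fold change of -0.53 (adjusted p = 0.000203, SE 0.09).

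**Figure D2:**
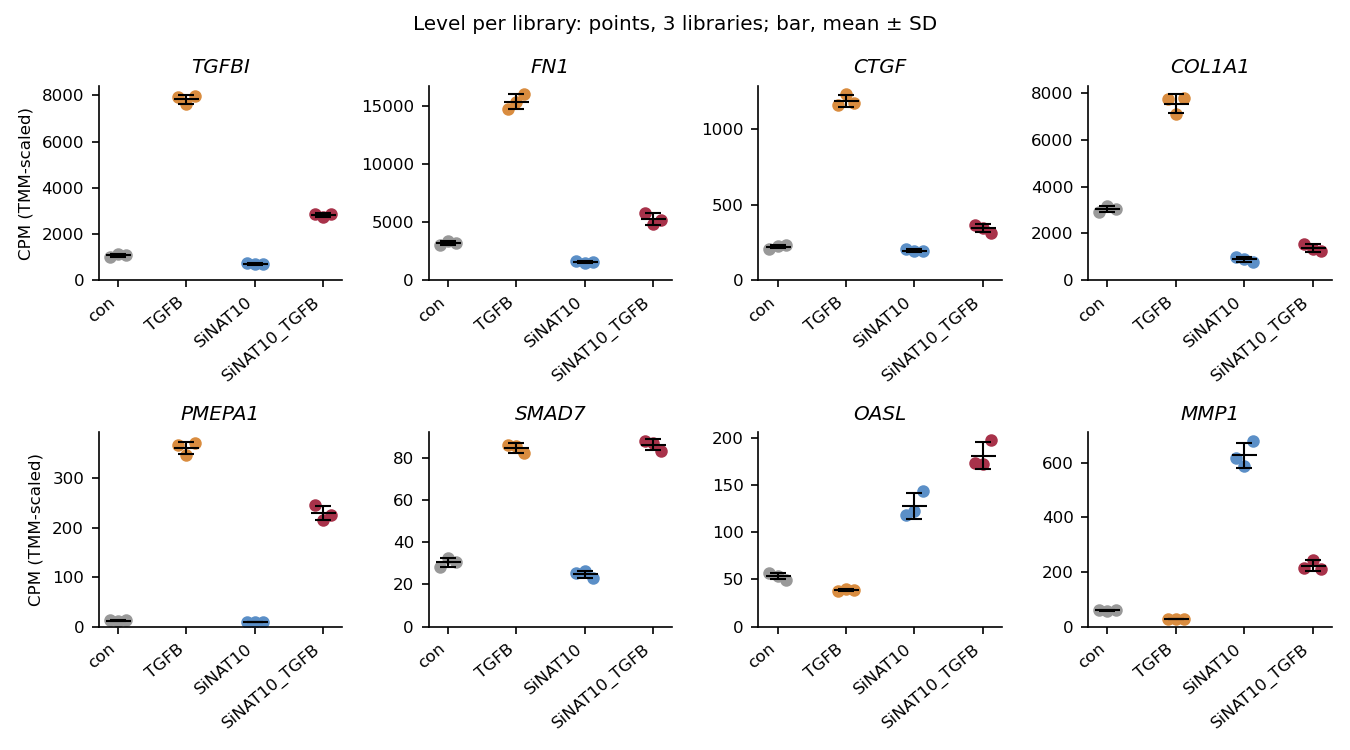
Level of 8 genes in each of the 12 libraries, in TMM-scaled CPM on linear axes that start at 0, by group, with 3 points per group and a bar for the mean ± SD. In the siRNA groups TGFBI goes from 675 to 752 CPM up to 2735 to 2883 CPM with TGF-β1, MMP1 falls, and OASL is higher with TGF-β1 where the untransfected groups have it lower.

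Of the 10 fibrillar collagens tested 6 rose (median 0.78), and 4 rose in a fit of the 2 groups alone and without SiNAT10_TGFB replicate 3. COL1A1 (chr17:50183289-50201632), a chain of type I collagen, was at 965, 907 and 769 CPM in SiNAT10 and 1548, 1313 and 1231 CPM in SiNAT10_TGFB. The lowest treated library was above the highest untreated one, and the log2 fold change was 0.63 (adjusted p = 1.29e-06, SE 0.07). COL3A1, the type III collagen, was at 7.82, 10.2 and 11.1 CPM in SiNAT10 and 26.1, 19.5 and 26.1 CPM in SiNAT10_TGFB, a rise of 1.30 (adjusted p = 1.36e-08, SE 0.12) log2 units. COL5A1, a chain of the type V collagen that nucleates fibrils, was at 204, 213 and 193 CPM in SiNAT10 and 544, 473 and 458 CPM in SiNAT10_TGFB and rose by 1.27 (adjusted p = 3.09e-13, SE 0.06) log2 units. COL27A1 rose by 1.43 (adjusted p = 5.86e-12, SE 0.08) log2 units. COL1A2, the other type I chain, was close to the detection limit, at 0.823, 1.14 and 0.609 CPM in SiNAT10 and 1.39, 1.92 and 1.59 CPM in SiNAT10_TGFB. Its log2 fold change was 0.92 (adjusted p = 0.031, SE 0.28), and the call was lost without SiNAT10 replicates 1 or 3, without SiNAT10_TGFB replicates 2 or 3, with limma voom and on the FPKM scale.

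Nonfibrillar collagens split by chain, with 8 of 17 higher and 5 lower (median 0.31). The basement membrane chains COL4A1 and COL4A2, which are transcribed from neighbouring genes, both rose. COL4A1 was at 293, 319.5 and 311 CPM in SiNAT10 and 956, 860.2 and 818 CPM in SiNAT10_TGFB, a log2 fold change of 1.51 (adjusted p = 5.95e-15, SE 0.06), and COL4A2 rose by 0.96 (adjusted p = 1.31e-12, SE 0.05). The chains COL4A5 and COL4A6, which lie beside each other on the X chromosome, fell. COL4A6 was at 25.3, 25.9 and 29.6 CPM in SiNAT10 and 11.6, 12.4 and 10.98 CPM in SiNAT10_TGFB, with every treated library under every untreated one. The log2 fold changes were -0.98 (adjusted p = 1.51e-07, SE 0.10) for COL4A5 and -1.21 (adjusted p = 6.3e-09, SE 0.10) for COL4A6. COL6A3, a type VI collagen chain, rose by 1.36 (adjusted p = 1.88e-11, SE 0.08) log2 units, with SiNAT10_TGFB replicate 2 lowest among 279, 209 and 262 CPM.

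Enzymes and chaperones of collagen maturation rose at 8 of 26 members, by less than 1 log2 unit each, and the other 18 did not pass the test (median 0.12). LOX, the lysyl oxidase that cross-links collagen, was at 25.7, 24.7 and 28.4 CPM in SiNAT10 and 39.2, 36.3 and 42.2 CPM in SiNAT10_TGFB, a log2 fold change of 0.58 (adjusted p = 4.32e-06, SE 0.07). P4HA2, a prolyl hydroxylase subunit, rose by 0.53 (adjusted p = 2.28e-07, SE 0.06) and SERPINH1, the collagen chaperone, by 0.33 (adjusted p = 0.000175, SE 0.06) log2 units. Matrix glycoproteins and proteoglycans had 13 of 37 higher and 7 lower (median 0.05). FN1 (chr2:215360440-215436172), fibronectin, was at 1647, 1507 and 1539 CPM in SiNAT10 and 5760.2, 4798 and 5188 CPM in SiNAT10_TGFB. It rose by 1.75 (adjusted p = 2.65e-16, SE 0.06) log2 units, and SiNAT10_TGFB replicate 2 was the lowest of the treated libraries. THBS1, thrombospondin-1 and a known activator of latent TGF-β, rose by 1.54 (adjusted p = 9.53e-16, SE 0.05) log2 units. VCAN, the proteoglycan versican, was at 34.9, 35.7 and 40.4 CPM in SiNAT10 and 122, 84.9 and 119 CPM in SiNAT10_TGFB, without overlap although SiNAT10_TGFB replicate 2 was lower than the other 2. NID2 and LAMA4, basement membrane components, fell, with log2 fold changes of -0.73 (adjusted p = 7.53e-06, SE 0.10) and -0.68 (adjusted p = 3.45e-06, SE 0.09).

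Integrins, the receptors through which cells hold matrix, had 7 of 16 higher and 2 lower (median 0.45). ITGAV, whose dimers activate latent TGF-β, was at 84.3, 88.6 and 109 CPM in SiNAT10 and 199.8, 180.2 and 205 CPM in SiNAT10_TGFB, a rise of 1.05 (adjusted p = 7.59e-10, SE 0.08) log2 units. ITGA5, the fibronectin receptor subunit, was at 803, 767 and 798 CPM in SiNAT10 and 1336, 1303 and 1286 CPM in SiNAT10_TGFB and rose by 0.73 (adjusted p = 7.82e-11, SE 0.05). ITGB1 rose by 0.54 (adjusted p = 9.37e-09, SE 0.05) log2 units, and ITGA7, a laminin receptor subunit, fell, with a log2 fold change of -0.39 (adjusted p = 0.00136, SE 0.08).

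Contractile and cytoskeletal genes rose at 18 of 33 members, with 1 lower and a median of 0.23. TPM1, a tropomyosin, was at 415, 402 and 420.04 CPM in SiNAT10 and 1189, 1137 and 1222 CPM in SiNAT10_TGFB. The groups were far apart relative to their spread, a log2 fold change of 1.52 (adjusted p = 1.61e-16, SE 0.05). TAGLN, the smooth muscle protein transgelin, was at 129.8, 115 and 124 CPM in SiNAT10 and 252, 270.2 and 287 CPM in SiNAT10_TGFB and rose by 1.14 (adjusted p = 4.4e-12, SE 0.06) log2 units. CALD1, caldesmon, rose by 1.14 (adjusted p = 3.08e-12, SE 0.06) and TAGLN2 by 0.57 (adjusted p = 4.87e-09, SE 0.05) log2 units. ACTA2, the α-smooth muscle actin by which activated stellate cells are often recognised, was at 5.63, 4.21 and 3.15 CPM in SiNAT10 and 4.30, 3.80 and 4.71 CPM in SiNAT10_TGFB. These groups overlapped, and the log2 fold change of -0.02 (adjusted p = 0.973, SE 0.20) did not pass the test. In ACTA2 30.1% of exon bases are also covered by the antisense gene ACTA2-AS1, and whether the counts used strand is not stated in the labels. MYLK, the myosin light chain kinase, fell, with a log2 fold change of -0.35 (adjusted p = 0.0007, SE 0.07).

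Targets of YAP/TEAD and SRF, factors that respond to tension and actin, had 9 of 28 higher and 5 lower (median 0.10), and the lower count was 3 without SiNAT10 replicate 1 and without SiNAT10_TGFB replicate 3. ANKRD1 was at 30.5, 33.5 and 31.1 CPM in SiNAT10 and 64.4, 66.8 and 67.9 CPM in SiNAT10_TGFB, a rise of 1.07 (adjusted p = 8.2e-11, SE 0.07) log2 units. VGLL3, a TEAD cofactor, rose by 0.82 (adjusted p = 1.54e-08, SE 0.07) log2 units. EGR2, an immediate-early factor, was at 1.20, 1.54 and 0.895 CPM in SiNAT10 and 5.86, 3.34 and 6.81 CPM in SiNAT10_TGFB and rose by 2.14 (adjusted p = 2.14e-06, SE 0.26) log2 units. F3, tissue factor, was at 361, 378 and 379.8 CPM in SiNAT10 and 201, 208 and 205 CPM in SiNAT10_TGFB. It fell, with a log2 fold change of -0.87 (adjusted p = 6.85e-11, SE 0.06), and MYOF, myoferlin, fell with -0.48 (adjusted p = 6.68e-07, SE 0.05).

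Matrix proteases and their inhibitors had 13 of 32 higher and 6 lower (median 0.34). Besides MMP2 and ADAM19, TIMP1, an inhibitor of matrix metalloproteases, was at 315, 277 and 280.00 CPM in SiNAT10 and 386, 398 and 400.5 CPM in SiNAT10_TGFB, a rise of 0.44 (adjusted p = 2.57e-05, SE 0.06) log2 units. MMP1 (chr11:102789920-102798160), the interstitial collagenase, was at 617, 586 and 678 CPM in SiNAT10 and 214, 245 and 209.7 CPM in SiNAT10_TGFB. The treated libraries were all under the untreated ones and the log2 fold change was -1.49 (adjusted p = 6.01e-14, SE 0.07). SERPINB2 (chr18:63871692-63903890), whose promoter is printed above, was at 606, 629.8 and 764 CPM in SiNAT10 and 167, 183 and 195 CPM in SiNAT10_TGFB. It fell, with a log2 fold change of -1.88 (adjusted p = 1.34e-14, SE 0.08). Of its exon bases 19.9% are shared with SERPINB10 on the same strand.

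Growth factors and their receptors had 10 of 29 higher and 6 lower (median 0.06). PDGFB, a mitogen for stellate cells, was at 18.2, 17.3 and 15.4 CPM in SiNAT10 and 62.9, 59.5 and 56.9 CPM in SiNAT10_TGFB and rose by 1.82 (adjusted p = 5.59e-12, SE 0.10) log2 units. IGF1R, the insulin-like growth factor receptor, was at 52.8, 48.1 and 47.04 CPM in SiNAT10 and 96.2, 89.2 and 77.9 CPM in SiNAT10_TGFB, a rise of 0.83 (adjusted p = 1.12e-08, SE 0.07). AREG, an EGF receptor ligand, was at 15.3, 11.6 and 13.2 CPM in SiNAT10 and 2.91, 3.07 and 4.46 CPM in SiNAT10_TGFB. It fell, with a log2 fold change of -1.94 (adjusted p = 2.18e-07, SE 0.20), and MET, the hepatocyte growth factor receptor, fell with -0.41 (adjusted p = 9.46e-06, SE 0.06).

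Wnt ligands and secreted antagonists had 5 of 20 higher and 4 lower (median 0.26). Calls went both ways among ligands and among antagonists: the ligands WNT7A, WNT5B, WNT5A and WNT7B rose and WNT10A fell, and the antagonist DKK3 rose while SFRP1 and DKK1 fell. The other lower gene was FZD8, a Wnt receptor. WNT7A was at 1.78, 1.11 and 1.75 CPM in SiNAT10 and 17.2, 16.2 and 17.8 CPM in SiNAT10_TGFB, a log2 fold change of 3.46 (adjusted p = 1.12e-12, SE 0.18). WNT5B was at 52.8, 47.3 and 48.4 CPM in SiNAT10 and 107, 105 and 102 CPM in SiNAT10_TGFB and rose by 1.08 (adjusted p = 3.58e-11, SE 0.07) log2 units. SFRP1, a decoy that binds Wnt proteins, was at 47.9, 52.2 and 61.5 CPM in SiNAT10 and 11.6, 8.75 and 11.3 CPM in SiNAT10_TGFB, and its log2 fold change was -2.35 (adjusted p = 2.09e-14, SE 0.10). DKK1, which blocks the Wnt co-receptors, was at 213, 216 and 239 CPM in SiNAT10 and 117, 119 and 125 CPM in SiNAT10_TGFB, a log2 fold change of -0.88 (adjusted p = 1.06e-10, SE 0.06). Every treated value of SFRP1 and DKK1 was below the untreated values of the same gene. WNT5A and WNT7B rose by 1.25 (adjusted p = 7.99e-11, SE 0.08) and 0.66 (adjusted p = 7.02e-05, SE 0.10) log2 units, and DKK3 by 0.25 (adjusted p = 0.00459, SE 0.06). WNT10A, chosen after its values were seen as were WNT5A, WNT7B, DKK3 and FZD8, was near the limit of detection, at 0.618, 0.214 and 0.430 CPM in SiNAT10 and 0.104, 0 and 0.0724 CPM in SiNAT10_TGFB. Its fitted log2 fold change was -2.72 (adjusted p = 0.0388, SE 0.85), and the call was lost without any 1 of the 6 libraries except SiNAT10 replicate 2, with the replicate block, with limma voom and on the log2(FPKM + 1) scale.

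Genes of cholesterol synthesis rose at 15 of 25 members, with 1 lower and a median of 0.37. HMGCS1, which makes the precursor of mevalonate, was at 55.5, 63.6 and 67.1 CPM in SiNAT10 and 112, 110.3 and 118 CPM in SiNAT10_TGFB, a log2 fold change of 0.87 (adjusted p = 2.39e-09, SE 0.07). SQLE, squalene epoxidase, was at 44.6, 47.8 and 50.04 CPM in SiNAT10 and 86.99, 81.5 and 84.3 CPM in SiNAT10_TGFB and rose by 0.83 (adjusted p = 1.58e-09, SE 0.06) log2 units. INSIG1, a sterol sensor that is itself a target of the sterol-responsive factor SREBP, rose by 0.78 (adjusted p = 1.46e-08, SE 0.07) and FDFT1, squalene synthase, by 0.65 (adjusted p = 2.2e-07, SE 0.07) log2 units. In fatty acid synthesis 7 of 15 rose (median 0.18). SCD, the stearoyl-CoA desaturase, was at 177, 183 and 210.3 CPM in SiNAT10 and 327, 325 and 345 CPM in SiNAT10_TGFB, a rise of 0.81 (adjusted p = 2.12e-09, SE 0.06) log2 units, and ACLY, which supplies cytosolic acetyl-CoA, rose by 0.57 (adjusted p = 8.41e-09, SE 0.05). The sterol motif TCACNCCAC was in 1 of 18 matched promoters of the cholesterol list and in 1.12% of all.

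Chaperones and unfolded protein response genes of the endoplasmic reticulum rose at 12 of 24 members (median 0.17). The count was 7 with scaling to library size alone, 6 without SiNAT10 replicate 2 and without SiNAT10_TGFB replicate 2, and 8 or 16 without each of the other libraries. CREB3L1, a membrane-bound factor for secretory genes, was at 57.98, 56.02 and 49.2 CPM in SiNAT10 and 95.8, 89.4 and 77.04 CPM in SiNAT10_TGFB, a rise of 0.68 (adjusted p = 4.83e-07, SE 0.08) log2 units. HSPA5, the chaperone BiP, was at 1030.0, 987 and 1052 CPM in SiNAT10 and 1229, 1263 and 1299.7 CPM in SiNAT10_TGFB and rose by 0.30 (adjusted p = 3.04e-05, SE 0.04). HYOU1, another chaperone of this compartment, rose by 0.33 (adjusted p = 8.55e-05, SE 0.05) log2 units.

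Mitosis genes fell at 11 of 34 members, and the median was -0.19. ANLN, a cytokinesis protein, was at 398, 394 and 442 CPM in SiNAT10 and 307, 310.4 and 319 CPM in SiNAT10_TGFB, a log2 fold change of -0.40 (adjusted p = 2.77e-05, SE 0.06). CENPE, a kinetochore motor, was at 78.3, 93.8 and 94.3 CPM in SiNAT10 and 67.9, 57.4 and 62.2 CPM in SiNAT10_TGFB and fell, with -0.51 (adjusted p = 0.000112, SE 0.08). MKI67, a marker of proliferating cells, was at 469, 455 and 454 CPM in SiNAT10 and 410.3, 367 and 375 CPM in SiNAT10_TGFB, without overlap, and its log2 fold change was -0.26 (adjusted p = 0.00231, SE 0.06). The number of lower genes was 21 with scaling to library size alone, 20 with the GC trend removed, 7 in a fit of the 2 groups alone, and 5 without SiNAT10_TGFB replicate 2.

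NF-κB and inflammatory genes had 8 of 35 higher and 7 lower (median 0.02). Besides IL11, PTX3, a secreted pattern-recognition protein, was at 133, 142 and 141 CPM in SiNAT10 and 44.1, 46.3 and 48.2 CPM in SiNAT10_TGFB. It fell, with a log2 fold change of -1.59 (adjusted p = 3.88e-14, SE 0.07). VCAM1, an adhesion molecule for leukocytes, was at 5.66, 6.14 and 6.26 CPM in SiNAT10 and 1.67, 2.46 and 2.43 CPM in SiNAT10_TGFB, a log2 fold change of -1.47 (adjusted p = 5.68e-06, SE 0.19), and C3, the complement component, fell with -0.76 (adjusted p = 1.49e-05, SE 0.11). Type I interferon response genes mostly did not pass the test: 5 of 40 rose, 1 fell and 34 did neither (median 0.03). OASL (chr12:121019111-121039242), an antiviral protein of the oligoadenylate synthetase family, was at 118, 122 and 144 CPM in SiNAT10 and 173, 172 and 197 CPM in SiNAT10_TGFB. Its groups did not overlap and the log2 fold change was 0.50 (adjusted p = 4.75e-05, SE 0.08). IFI44 was at 42.9, 35.5 and 44.7 CPM in SiNAT10 and 67.2, 66.3 and 73.6 CPM in SiNAT10_TGFB, a rise of 0.75 (adjusted p = 6.61e-06, SE 0.10) log2 units. SAMD9, an antiviral protein, was at 141, 157 and 182 CPM in SiNAT10 and 211, 194 and 208 CPM in SiNAT10_TGFB and rose by 0.35 (adjusted p = 0.00508, SE 0.08). The number of genes of this list that rose was 3 without SiNAT10 replicate 2 and without SiNAT10_TGFB replicate 3 and 7 without SiNAT10 replicate 3. Removing the GC trend gave 8. It was 3 with scaling to library size alone, where 3 fell and the median was -0.03.

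Targets of the oxidative stress factor NRF2, with ferroptosis defence genes, had 2 of 21 higher and 6 lower (median -0.13). HMOX1, heme oxygenase, was at 63.5, 68.7 and 61.1 CPM in SiNAT10 and 113, 113 and 97.9 CPM in SiNAT10_TGFB, a rise of 0.74 (adjusted p = 9.19e-07, SE 0.09) log2 units. TXNRD1, thioredoxin reductase, was at 687, 683 and 725 CPM in SiNAT10 and 451, 476 and 505 CPM in SiNAT10_TGFB. It fell, with a log2 fold change of -0.55 (adjusted p = 6.74e-08, SE 0.05), and SLC7A11, the cystine transporter, fell with -0.83 (adjusted p = 3.36e-06, SE 0.10). Of 25 glycolysis and hypoxia genes 3 rose and 4 fell. The higher count was 5 without SiNAT10 replicate 1, and the lower count was 2 without SiNAT10_TGFB replicate 1, 7 with scaling to library size alone and 8 with the GC trend removed. PFKFB3, a regulator of glycolysis, rose by 0.58 (adjusted p = 1.32e-06, SE 0.07) log2 units, and ADM, the hypoxia-responsive peptide adrenomedullin, fell with -0.67 (adjusted p = 5.03e-08, SE 0.06).

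Outside the lists, the largest log2 fold changes were taken among genes with a mean of at least 50 counts. ODAPH, a secreted phosphoprotein, was at 0.206, 0.714 and 0.573 CPM in SiNAT10 and 8.71, 11.2 and 8.58 CPM in SiNAT10_TGFB, a log2 fold change of 4.25 (adjusted p = 2.12e-10, SE 0.30). SERPINA9, a serpin known from germinal centre B cells, was at 2.54, 2.21 and 2.43 CPM in SiNAT10 and 27.2, 36.3 and 26.4 CPM in SiNAT10_TGFB and rose by 3.64 (adjusted p = 5.09e-14, SE 0.16). GJA1, a connexin of gap junctions, was at 4.15, 4.43 and 6.94 CPM in SiNAT10 and 31.2, 29.4 and 36.4 CPM in SiNAT10_TGFB, a rise of 2.64 (adjusted p = 7.78e-12, SE 0.15) log2 units. INAVA, CHRNA9, F2RL1 and NKILA rose by 2.76, 2.69, 2.48 and 2.74 log2 units (SE 0.18, 0.35, 0.32 and 0.24). NKILA, a long noncoding RNA, has 13.2% of its exon bases opposite PMEPA1, so some of its reads cannot be told apart from those of that gene. CGB8 rose by 3.59 (adjusted p = 2.51e-13, SE 0.17) log2 units, and belongs to a cluster of near-identical chorionic gonadotropin genes among which reads can be split, so its value is uncertain. Among the largest falls, RELN, the secreted glycoprotein reelin, was at 13.2, 13.6 and 10.5 CPM in SiNAT10 and 2.01, 2.27 and 1.81 CPM in SiNAT10_TGFB, a log2 fold change of -2.61 (adjusted p = 2.01e-10, SE 0.18). IL24, a cytokine, fell with -1.97 (adjusted p = 0.000191, SE 0.34) and B3GALT5, a galactosyltransferase, with -2.05 (adjusted p = 2.59e-05, SE 0.30). The treated libraries of RELN, IL24 and B3GALT5 were each below all untreated ones.

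Set beside untransfected cells, where TGF-β1 called 24.1% of genes (2213 higher and 2259 lower, with the same number of libraries), the siRNA cells had fewer calls. The 2 comparisons share no library. The median SE of a log2 fold change was 0.129 with and 0.127 without the siRNA. Both come from 1 fit with a shared estimate of the spread, so these SEs cannot compare the spread of the 2 settings. The SD across genes of deviations from the group mean was 0.138 to 0.183 log2 units in the siRNA libraries and 0.126 to 0.139 in the others. Fits of 2 groups alone gave 880 higher and 741 lower genes with the siRNA, and 5383 calls without it. Of the genes that rose with the siRNA, 855 also rose without it, which is 77.9% of the 1098 and 38.6% of the 2213. Of those that fell, 716 fell in both, 74.9% of the 956 and 31.7% of the 2259. Across the 13043 genes with a mean of at least 50 counts, the log2 fold changes of the comparisons had a Pearson r of 0.73 and a Spearman rho of 0.58, across genes that are not independent replicates. Without the siRNA 601 genes rose (3.24%) and 399 fell (2.15%) by at least 1 log2 unit. The 601 had a median of 1.66 there and of 0.78 with it, where 299 of them rose and 2 fell. For the 399, the medians were -1.47 and -0.69, and 194 of them fell with the siRNA. Both sets were selected in the untransfected cells, so their medians there are large by selection. The interaction, the log2 fold change with the siRNA minus that without it, was called for 159 of the 601 in the downward and for 5 in the upward direction. Over all genes tested the shares were 1.91% and 1.94%, and the selection of the 601 favours the downward direction.

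**Figure D3:**
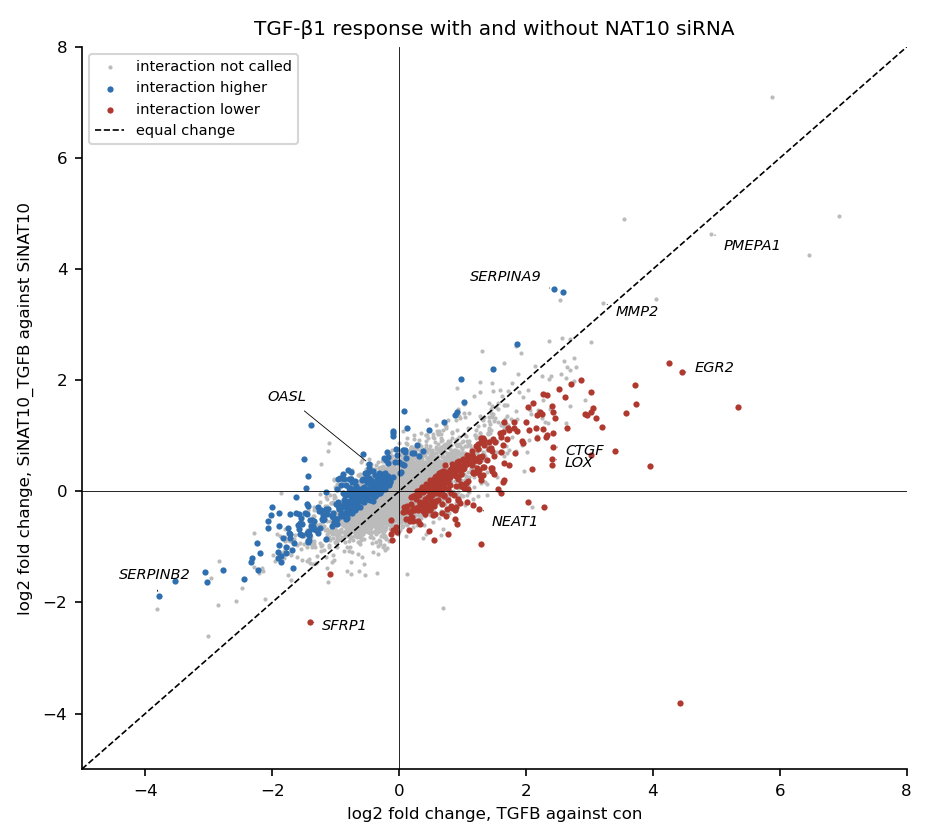
Log2 fold change with TGF-β1 in untransfected cells (horizontal) and in siRNA cells (vertical) for the 13043 genes with a mean of at least 50 counts, with genes whose interaction was called in blue (higher with the siRNA) and red (lower with the siRNA) and the line of equal change dashed. PMEPA1 and MMP2 lie near the line, CTGF and LOX lie far below it, and SERPINB2 lies above it because it fell less with the siRNA.

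Over all genes the interaction was called for 714 genes (3.85%), 360 higher (1.94%) and 354 lower (1.91%). It uses the libraries of both comparisons and is no independent repeat of either. Of the 354 lower, 325 were genes that rose without the siRNA, and of the 360 higher, 309 were genes that fell without it. Over all genes tested, 11.9% rose and 12.2% fell without the siRNA. The interaction subtracts that same response, so this split is partly built in and is no separate evidence of a smaller response. Scaling to library size alone gave 641 higher and 290 lower, 68.9% higher against 50.4%. Among the direct TGF-β/SMAD response genes the interaction was lower for 21 of 35. They include ID1, which fell with the siRNA and was not called without it. In the con libraries CTGF had 207, 226 and 229 CPM and in the TGFB libraries 1159, 1232 and 1172 CPM, a log2 fold change of 2.43 against 0.81 with the siRNA, and the interaction was -1.62 (adjusted p = 3.91e-11, SE 0.09). LOX went from 40.98, 39.3 and 39.01 to 213, 219 and 204 CPM without the siRNA, 2.41 log2 units against 0.58, an interaction of -1.83 (adjusted p = 5.82e-11, SE 0.10). COL1A1 had 3041 ± 124 CPM (SD, n = 3) in the con libraries and 7549.6 ± 393 CPM in the TGFB libraries, and the con libraries were all above the SiNAT10_TGFB libraries, which had 1364 ± 165 CPM. Its interaction was -0.68 (adjusted p = 0.000228, SE 0.10). TAGLN, INHBA and THBS1 had interactions of -1.02, -1.03 and -0.87.

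Other genes had responses that did not differ past the threshold. SMAD7 went from 30.6 ± 2.23 to 84.9 ± 2.19 CPM without the siRNA and from 24.8 ± 1.76 to 86.4 ± 2.55 CPM with it (mean ± SD, n = 3), an interaction of 0.32 (adjusted p = 0.088, SE 0.10). PMEPA1 had an interaction of -0.28 (adjusted p = 0.198, SE 0.11), MMP2 of 0.17 (adjusted p = 0.538, SE 0.12), TPM1 of -0.02 (adjusted p = 0.953, SE 0.07), HMGCS1 of 0.11 (adjusted p = 0.672, SE 0.10) and ANLN of 0.13 (adjusted p = 0.471, SE 0.08). Such p-values do not show that the responses were alike, and the SEs give the precision of each difference.

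Most interferon response genes fell without the siRNA, where 24 of 40 were lower and 1 was higher (median -0.38). With it 34 of the 40 did not pass the test, 1 fell and 5 rose. The interaction was higher for 15 of the 40, with a median of 0.48. Over all genes tested, 12.2% fell and 11.9% rose without the siRNA, and 5.15% fell and 5.92% rose with it. The interaction was higher for 1.94% of all genes tested. The list was compiled with earlier results of these data known. Levels without TGF-β1 also differed: OASL was at 53.5 ± 3.58 CPM in con and 128 ± 13.9 CPM in SiNAT10 (SD, n = 3). With TGF-β1 it was at 38.6 ± 1.02 CPM without and 181 ± 14.3 CPM with the siRNA, log2 fold changes of -0.47 and 0.50 and an interaction of 0.97 (adjusted p = 4.59e-06, SE 0.11). For SAMD9 the log2 fold changes were -0.49 and 0.35, an interaction of 0.84 (adjusted p = 8.55e-05, SE 0.12). IFIT3 went from 77.2, 69.4 and 70.7 to 48.4, 52.3 and 50.02 CPM without the siRNA and from 191, 188 and 206 to 217, 218 and 250.1 CPM with it, an interaction of 0.75 (adjusted p = 2.33e-05, SE 0.10). Its rise of 0.23 in siRNA cells was not called without SiNAT10 replicates 1 or 2, without SiNAT10_TGFB replicate 3, or with scaling to library size alone. IFI44 did not pass the test without the siRNA (0.10 (adjusted p = 0.552, SE 0.11)), and the interaction was 0.65 (adjusted p = 0.00941, SE 0.15). The interferon response motif was in 6.32% of the 269 matched promoters of genes with a higher interaction and in 2.96% of all matched promoters. The 269 include the promoters of SAMD9, IFIT3 and IFI44 printed above, which belong to the interferon list, so the share partly restates that list.

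**Figure D4:**
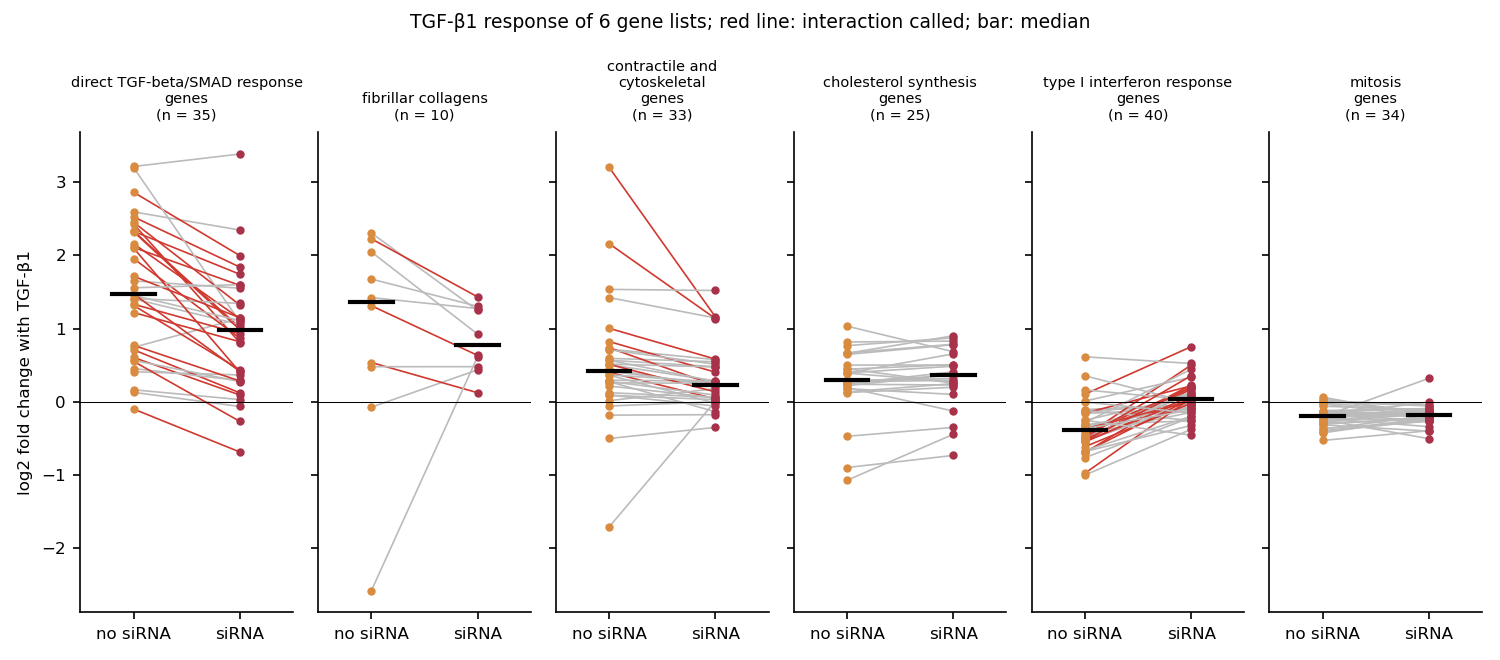
Log2 fold change with TGF-β1 of each tested member of 6 gene lists, without the siRNA (left) and with it (right), joined by a line that is red where the interaction was called, with a black bar at each list's median. The medians go from 1.47 to 0.98 in the direct TGF-β/SMAD response genes, are 0.29 and 0.37 in cholesterol synthesis and -0.19 in both settings in mitosis, and go from -0.38 to 0.03 in the interferon response genes.

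Opposite calls in the 2 settings were made for 30 genes, 17 higher with and lower without the siRNA and 13 the reverse, and the interaction was called for each of the 30. Besides OASL, SAMD9 and IFIT3, TNFRSF10D, a decoy receptor for the death ligand TRAIL, was at 80.4, 79.7 and 78.4 CPM in SiNAT10 and 122, 119.9 and 118 CPM in SiNAT10_TGFB, a rise of 0.60 (adjusted p = 1.34e-07, SE 0.06), against -0.23 (adjusted p = 0.00648, SE 0.06) without the siRNA. ZC3HAV1, the zinc finger antiviral protein, rose by 0.31 (adjusted p = 0.000817, SE 0.06) against -0.29 (adjusted p = 0.000942, SE 0.06). In the other direction, CEMIP, a protein of hyaluronan breakdown, was at 8.23, 8.68 and 8.95 CPM in SiNAT10 and 5.07, 4.72 and 4.24 CPM in SiNAT10_TGFB. It fell with the siRNA, -0.88 (adjusted p = 4.98e-06, SE 0.11), and rose without it, 0.56 (adjusted p = 0.000114, SE 0.10). NPPB, the precursor of B-type natriuretic peptide, was at 8.06, 8.78 and 8.95 CPM in SiNAT10 and 4.96, 5.72 and 6.41 CPM in SiNAT10_TGFB, with log2 fold changes of -0.59 and 0.92. ADAM12, a metalloprotease, had -0.53 and 0.29, DOCK9, an activator of the small GTPase CDC42, -0.36 and 0.37, and NDRG1, a stress-responsive gene, -0.34 and 0.30. Interactions were -1.44 for CEMIP, -1.51 for NPPB, -0.82 for ADAM12, -0.73 for DOCK9 and -0.65 for NDRG1.

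A few genes changed more with the siRNA than without it, and SERPINB2 and EPHA4 changed less. SERPINA9 went from 2.23 ± 0.517 to 12.2 ± 0.752 CPM without the siRNA and from 2.40 ± 0.166 to 29.98 ± 5.48 CPM with it (mean ± SD, n = 3), an interaction of 1.20 (adjusted p = 0.00231, SE 0.23). HMOX1 did not pass the test without the siRNA (0.06 (adjusted p = 0.696, SE 0.09)), and its interaction was 0.68 (adjusted p = 0.00201, SE 0.13). SOX9, which fell with the siRNA, went from 39.3, 39.9 and 45.3 to 37.4, 37.3 and 39.9 CPM without it, where the groups overlapped, and its interaction was -0.75 (adjusted p = 0.00012, SE 0.11). SFRP1 fell in both settings, with log2 fold changes of -1.41 without and -2.35 with the siRNA, an interaction of -0.94 (adjusted p = 4.86e-05, SE 0.13). SERPINB2 fell less with the siRNA, -1.88 against -3.79, an interaction of 1.92 (adjusted p = 4.34e-10, SE 0.12). Its levels stood apart before treatment, with 94.8 ± 3.91 CPM in con and 667 ± 85.4 CPM in SiNAT10. EPHA4, an ephrin receptor, did not pass the test with the siRNA (0.27 (adjusted p = 0.0973, SE 0.10)) and fell without it (-1.44), an interaction of 1.70 (adjusted p = 6.41e-08, SE 0.15).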

How the data were processed

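Gene counts and FPKM values deposited by the authors covered 58735 genes in 12 libraries. The submitters' processing notes name fastp, HISAT2 2.2.1 and the hg38 build. How reads were counted, on which annotation and with which strand setting was not given in the sources used here. Gene positions in the files all matched GENCODE release 29, from which coordinates, overlaps and GC content were taken. The FPKM deposited by the authors served only in alternatives.

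Analysis used edgeR 4.0.16 under R 4.3.3. The filterByExpr function kept 18560 genes, and libraries were scaled by TMM. A single quasi-likelihood fit of the 4 groups of 3 libraries gave SiNAT10_TGFB against SiNAT10, TGFB against con and their difference, the interaction. P-values were adjusted by Benjamini-Hochberg over all genes tested and genes called at an adjusted p under 0.05. The SEs and p-values reflect counting error and the spread of libraries. They do not cover the choice of scaling or reads shared among overlapping or near-identical genes. Gene lists (33) and members were compiled from general knowledge and chosen with earlier results of these data known, and the sterol and interferon motifs were added after the design was written. Lists are described by counts and medians. Named genes were anchors, up to 4 called members per list with the smallest p and 2 against its direction, the 8 largest log2 fold changes each way outside the lists with a mean of at least 50 counts, and 6 each way for the interaction and for opposite calls. Called members of the Wnt list were added after their values were seen. Some genes that this rule takes in are not reported here. Alternatives covered scaling, filters, DESeq2 1.42.0, limma 3.58.1 (voom, and log2(FPKM + 0.1) or log2(FPKM + 1)), the replicate block, GC content, gene types, the threshold and leaving out each library.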

Additional observations from a re-analysis of the deposited data

Results flagged for a closer look

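The genes below are those named above whose TGF-β1 response differed between siRNA and untransfected cells by the interaction term of edgeR's quasi-likelihood test. Each value is a log2 fold change with the siRNA minus that without it, over 3 libraries in each of 4 groups.

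Among genes that rose in both settings and rose less with the siRNA, the value for ligands and signalling genes was -0.53 for TGFB1, -1.03 for INHBA, -0.52 for IL11, -0.57 for VEGFA, -0.78 for WNT5B and -0.41 for WNT5A, a call lost with limma voom and with the replicate block. It was -0.59 for ADAM19, -0.54 for P4HA2, -1.83 for LOX and -0.43 for ITGA5 among proteases, collagen enzymes and integrins. For matrix genes it was -0.53 for FN1, -0.87 for THBS1, -0.87 for TGFBI, -1.62 for CTGF, -0.68 for COL1A1, -0.79 for COL27A1, -0.51 for COL4A1 and -0.35 for COL4A2. For nuclear and contractile genes it was -2.31 for EGR2, -1.34 for SNAI1, -0.51 for TCF4, -0.57 for ANKRD1 and -1.02 for TAGLN.

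Genes that fell in both settings and fell less with the siRNA had 1.92 for SERPINB2, 0.85 for PTX3, 0.29 for F3, 0.54 for DKK1, 0.70 for COL4A6, 0.38 for NEDD4L, 0.48 for TXNRD1 and 0.66 for ADM. MMP1 and SFRP1 fell in both and fell more with the siRNA, with -0.40 and -0.94. Genes that rose in both and rose more with the siRNA had 1.20 for SERPINA9, 0.78 for GJA1, 0.55 for IGF1R and 1.01 for CGB8, the last of which is uncertain because of its near-identical neighbours.

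Opposite directions gave 0.97 for OASL, 0.84 for SAMD9, 0.75 for IFIT3, 0.83 for TNFRSF10D and 0.61 for ZC3HAV1, which rose with the siRNA and fell without it, and -1.44 for CEMIP, -1.51 for NPPB, -0.82 for ADAM12, -0.73 for DOCK9 and -0.65 for NDRG1, which did the reverse. Genes called with the siRNA and not without it had 0.65 for IFI44, 0.69 for WNT7B, 0.68 for HMOX1, -0.59 for ID1, -0.75 for SOX9 and -0.70 for NID2. EPHA4, which was called only without the siRNA, had 1.70.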

How the results depend on the processing

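The main counts were 1098 higher and 956 lower genes with TGF-β1 in siRNA cells, and 360 higher and 354 lower for the interaction. In the siRNA groups, correlations of same-numbered deviations from the group means were 0.05, -0.01 and 0.22 for replicates 1, 2 and 3. No values for differently numbered libraries stand beside these, so whether replicate numbers pair the libraries cannot be told. With the replicate number as a block, 989 genes rose and 817 fell, and the interaction gave 286 and 305. Lower genes in siRNA cells numbered 1510 with scaling to library size alone, 1495 with the GC trend removed, 530 on log2(FPKM + 1) with no filter and 540 at an adjusted p under 0.01. The same settings gave 641, 667, 159 and 174 higher interactions. Lower interactions numbered 712 with the GC trend removed, 197 on log2(FPKM + 1) with no filter and 209 at an adjusted p under 0.01. GC removal with the replicate block gave 589 higher and 649 lower interactions. In untransfected cells, calls went from 4472 to 2874 on log2(FPKM + 1) with no filter. Without each replicate in turn, 864 to 1142 genes rose and 692 to 1001 fell in siRNA cells, and the interaction gave 245 to 464 higher and 268 to 506 lower. DESeq2 called 1255 higher and 1082 lower genes in siRNA cells, and limma voom 1090 and 929. The cause of these shifts was not tested. No gene of the main calls was called in the opposite direction under the alternatives run. For the named genes, 3463 values in siRNA cells stayed on their side of the threshold, 158 lost their call and 17 gained one. The interaction was not run with 2 groups only. In the siRNA libraries 3 counts corresponded to 0.103 to 0.115 CPM, and levels under this were at the limit of detection.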

Other observations

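Counts of some gene lists are given here beside the shares over all genes tested. Those shares were 5.92% higher and 5.15% lower in siRNA cells, and 11.9% and 12.2% without the siRNA. Of 30 ribosome biogenesis genes 1 rose with TGF-β1 (median log2 fold change 0.10), where 12 of 30 rose without the siRNA (median 0.15). Of 26 genes of the ATF4 and amino acid response 3 rose and 1 fell (median 0.02), against 11 and 5 without the siRNA. The higher count in siRNA cells was 1 without SiNAT10 replicate 2 and without SiNAT10_TGFB replicate 2, and 5 without SiNAT10 replicate 1. Glycolysis and hypoxia genes had 3 of 25 higher with the siRNA and 15 of 25 without it. The p53 targets had 2 of 28 members higher and 3 lower. Among them TP53I3, a p53-inducible oxidoreductase, was at 12.5, 12.5 and 11.2 CPM in SiNAT10 and 27.2, 27.4 and 27.4 CPM in SiNAT10_TGFB, a rise of 1.18 (adjusted p = 4.37e-09, SE 0.10) log2 units. DNA replication genes fell at 3 of 33 members (median -0.11), and at 9 with scaling to library size alone, 12 with the GC trend removed and 1 without SiNAT10_TGFB replicate 3. These pairs of counts come from separate tests, and the difference between the settings was not tested for the lists as a whole.

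Some genes with very large interaction values rest on near-identical or multicopy genes. BOLA2B had an interaction of -8.23 (adjusted p = 0.0132, SE 1.93), U2AF1L5 of 2.58 (adjusted p = 0.0135, SE 0.61) and RN7SL2 of -2.23 (adjusted p = 0.00888, SE 0.50). BOLA2B had 8.08 ± 13.2 CPM in TGFB and 8.48 ± 14.1 CPM in SiNAT10 (mean ± SD, n = 3), with an SD above the mean, so its value is uncertain.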
